A study of Mus musculus with 9 samples.

Results

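The cytosolic ribosome is built from ribosomal RNA and a set of proteins, most of which are present once in each particle. The genes analysed here encode those proteins. They were taken as the protein-coding mouse genes whose symbol is Rpl or Rps followed by a digit, together with Rplp0, Rplp1, Rplp2 and Rpsa. Ribosomal protein S6 kinases (Rps6k), Rps19bp1 and symbols ending in -ps and digits were left out. The rule found 85 of the 52550 gene identifiers in the count table. Of these, 52 encode large subunit proteins and 33 small subunit proteins. They lie on 19 chromosomes, and their coding sequences run from 75 bases (Rpl41) to 1257 bases (Rpl4), with a median of 453 bases.

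RNA was sequenced from mouse haematopoietic stem cells of the bone marrow, sorted by their surface proteins (CD150 and c-Kit with Sca1, and neither CD48 nor lineage markers). The 3 groups, with 3 libraries each, were old mice with the Sphk2 allele B6N.129S6-Sphk2tm1Rlp/J (Sphk2 cKO in the labels; old KO here), old wild-type mice (old WT) and young wild-type mice (young WT). Old mice were 22 to 24 months and young mice 2 months of age. Each library came from 1000 sorted cells amplified for 13 cycles. The labels name no Cre driver for the KO, no strain for the WT mice, and no animal, litter or day. They call the 3 libraries of a type technical replicates, so p-values measure only the spread between these libraries.

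Sphk2 itself had 12, 23 and 8 counts in old KO, 20, 1 and 35 in old WT and 1684, 88 and 576 in young WT libraries. Old KO and old WT overlapped, so the gene does not check the KO label. Counts in genes ran from 11284847 to 17544945 in old KO, 3145167 to 5115003 in old WT and 28088637 to 74021822 in young WT libraries. Of all counts, 45.0% to 61.9% lay outside genes in old KO, 80.8% to 87.7% in old WT and 6.51% to 12.5% in young WT libraries. Of 17 stem cell marker genes, 13 were above background in at least 2 old KO libraries, 2 in at least 2 old WT libraries and 15 in at least 2 young WT libraries. Those above background in old WT were Ly6e and Pdzk1ip1. Of the genes for the sorted surface proteins, Kit was above background in 3 old KO, 0 old WT and 3 young WT libraries, Ly6a (Sca1) in 1, 0 and 3, and Slamf1 (CD150) in 3, 1 and 3. Depth, reads outside genes and group moved together and cannot be told apart here.

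In most dividing cells ribosomal protein transcripts are among the most abundant messages. Their translation is controlled as a group through a terminal oligopyrimidine tract, a C followed by a run of pyrimidines at the very start of the transcript. The kinase mTOR and the binding protein Larp1 act on that tract. Blood stem cells are known for a low rate of protein synthesis, and loss of a single copy of some ribosomal protein genes causes bone marrow failure in people (RPS19 in Diamond-Blackfan anaemia, RPS14 in the 5q minus syndrome).

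A promoter window in RefSeq (GRCm38.p6) was found for 65 of the 85 genes, and 35 of those (53.8%) held such a tract, against 21.9% of 27025 genes with a window. The tract was searched on the gene's own strand as a C followed by at least 5 pyrimidines, starting within 10 bases of the annotated start. The following windows show the start of genes whose values are given below, with the 15 bases before the annotated start and the 15 from it on; capitals mark the tract, and the last 3 hold none under this rule.
Rpl15, chr14:18270972-18271001, minus strand: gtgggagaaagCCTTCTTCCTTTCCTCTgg
Rps6, chr4:86857353-86857382, minus strand: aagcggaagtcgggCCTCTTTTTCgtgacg
Rplp2, chr7:141447636-141447665, plus strand: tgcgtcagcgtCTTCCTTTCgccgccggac
Rpl38, chr11:114668565-114668594, plus strand: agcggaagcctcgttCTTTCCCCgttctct
Rps27, chr3:90213634-90213663, minus strand: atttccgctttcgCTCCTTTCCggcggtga
Rpl22l1, chr3:28805493-28805522, plus strand: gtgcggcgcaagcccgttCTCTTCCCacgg
Rpl10, chrX:74270801-74270830, plus strand: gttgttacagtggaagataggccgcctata
Rplp0, chr5:115559452-115559481, plus strand: gtcttcgggtttcgaggaccgcctggttct
Rps3, chr7:99483695-99483724, minus strand: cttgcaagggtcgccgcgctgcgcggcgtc
The tract of Rpl15 is 17 bases long and begins 4 bases before the annotated start, while that of Rpl22l1 is 8 bases long and begins 3 bases after it. A window depends on which start the annotation gives, so a missing tract says only that these letters are not in this window. In the whole promoter window, 250 bases before to 50 after the start, CCGGAAG on either strand was in 40.0% of the 65 genes and in 9.93% of all, and GGGCGG in 61.5% and 38.2%. AAGATGGC was in 9.23% against 3.19%, CCAAT in 30.8% against 41.1% and TATAAA in 10.8% against 15.7%.

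Ribosomal protein transcripts took up a large part of the counts in genes in every library. Their share was 21.1%, 19.3% and 21.6% in old KO, 21.6%, 22.5% and 12.6% in old WT and 26.0%, 27.7% and 26.2% in young WT libraries. The group means were 20.7% ± 1.2 in old KO, 18.9% ± 5.5 in old WT and 26.6% ± 1.0 in young WT (SD, n = 3 each). Both old groups lay below young WT without overlap, and old KO and old WT overlapped each other. Old WT library 3 stood apart at 12.6%, and the old WT mean without it was 22.1%.
The old WT difference from young WT was smaller after a background was subtracted. After the density of reads over 1134 olfactory receptor genes, which stem cells should not transcribe, was subtracted from every gene, the share was 22.2%, 20.7% and 22.4% in old KO, 26.8%, 27.2% and 18.1% in old WT and 26.0%, 27.8% and 26.3% in young WT libraries. Old WT then overlapped young WT, and old KO still lay below young WT. The old WT mean was then 24.0%, below the young WT mean of 26.7%, but of the old WT libraries only library 3 lay below that young WT mean. The part of reads outside genes in the difference was not tested. In bulk samples fewer cells of a type and less RNA per cell cannot be told apart.

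The large subunit genes took 11.9%, 10.6% and 11.7% of counts in old KO, 10.9%, 12.0% and 6.35% in old WT and 14.1%, 14.9% and 14.8% in young WT libraries. The small subunit genes took 9.14%, 8.66% and 9.98% in old KO, 10.7%, 10.5% and 6.21% in old WT and 11.9%, 12.9% and 11.3% in young WT libraries. The ratio of large to small subunit counts was 1.31, 1.23 and 1.17 in old KO, 1.01, 1.14 and 1.02 in old WT and 1.19, 1.16 and 1.31 in young WT libraries. All 3 old WT libraries lay below each of the other 6 libraries in this ratio, while old KO and young WT overlapped. No p is given for these sums, because the genes were chosen with results of these data known.

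**Figure D1:**
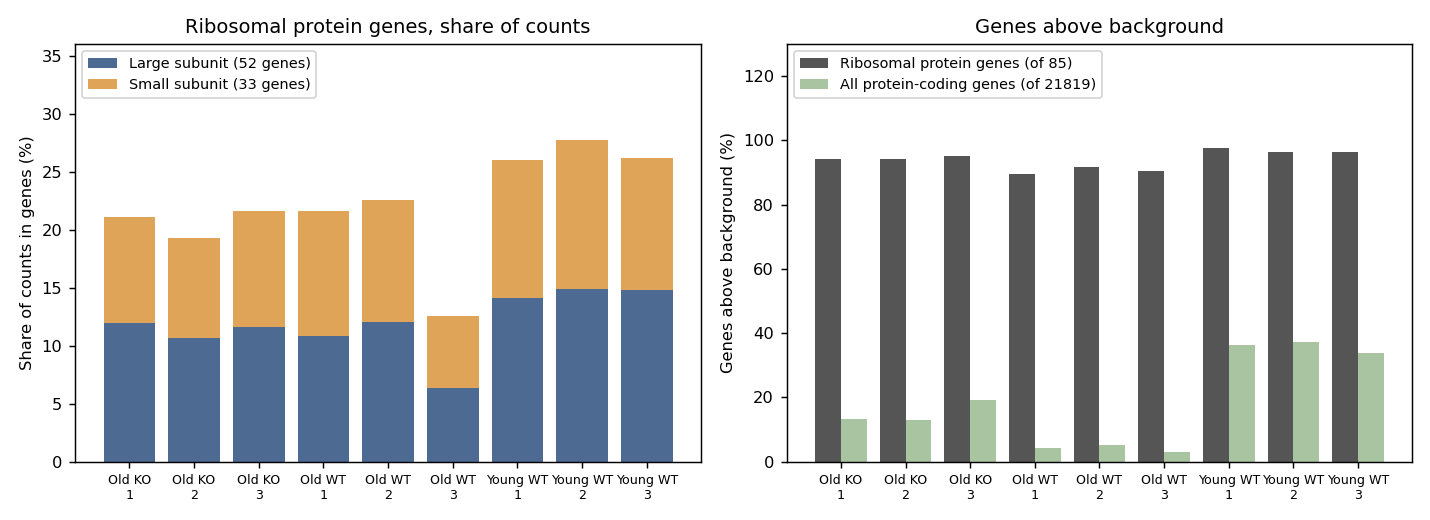
Left, share of counts in genes (%) taken by large and small subunit genes in each library, stacked. Right, percent of the 85 ribosomal protein genes and of the 21819 protein-coding genes that were above background in each library; the ribosomal protein genes stay near the top in old WT libraries, where few other genes are above background.

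The ribosomal protein genes stayed measurable in libraries where few other genes did. A gene was counted as above background when it reached 20 counts and also 5 times what its library's olfactory receptor density predicts for its exons. By this rule 80, 80 and 81 of the 85 genes were above background in old KO, 76, 78 and 77 in old WT and 83, 82 and 82 in young WT libraries. Of all 21819 protein-coding genes, 2883, 2865 and 4159 passed in old KO, 911, 1117 and 628 in old WT and 7896, 8110 and 7367 in young WT libraries. In all, 76 ribosomal protein genes passed in all 9 libraries.
The other 9 genes are mostly paralogs or genes that overlap another one. Rpl3l and Rpl10l, paralogs of Rpl3 and Rpl10 known for expression in muscle and testis, passed in no library. Rpl39l and Rpl36al, paralogs of Rpl39 and Rpl36a, passed in 2 young WT libraries and in no old library. Rpl22l1 passed in all old KO and all young WT libraries but in no old WT library, and Rps27l in all old KO, all young WT and 1 old WT library.
Rpl24 passed in all old KO, all young WT and no old WT library, Rpl13a in all old KO, all young WT and 1 old WT library, and Rpl7l1 in 1 old KO, 1 old WT and all young WT libraries. In Rpl24, Rpl36al and Rpl13a, 71.5%, 63.1% and 59.3% of the exon length overlaps another gene on the same strand, and reads there may be counted as ambiguous. The symbol Rps4l is annotated as a pseudogene and is not a member.

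Per kilobase of transcript, Rplp1 was the highest gene in every group. Rplp1 is an acidic protein of the lateral stalk, which recruits the translation factors. It had 25870 ± 4011 CPM per kb in old KO, 27750 ± 11700 in old WT and 37430 ± 12510 in young WT (SD, n = 3 each; CPM is the count scaled to the library's total in genes). Rps12, a small subunit protein, came next with 16030 ± 1796, 15950 ± 5985 and 19430 ± 998 CPM per kb in old KO, old WT and young WT.
Also among the 5 highest in young WT were Rpl10, a subunit joining protein, at 10670 ± 1684 CPM per kb and Rpl13 at 8714 ± 680 CPM per kb, which lay below Rpl10 by more than the SD of either. In old WT the next places went to Rps14, Rplp2 and Rps23, at 7319 ± 2179, 5662 ± 1997 and 5640 ± 2294 CPM per kb. Neighbours among these 3 differed by less than their SD. The lowest levels per kb in young WT were those of Rpl3l, Rpl10l, Rpl36al, Rpl24 and Rpl39l.

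The make-up of the ribosomal protein counts was alike in old KO and young WT libraries and more scattered in old WT libraries. For this, each gene's share of the summed ribosomal protein counts was set against its young WT mean (for a young WT library, the mean of the other two), over the 81 genes that passed the background rule in the whole young WT group. Within 2-fold of that mean were 75, 79 and 80 of the 81 genes in old KO, 59, 72 and 54 in old WT and 79, 80 and 78 in young WT libraries. The SD of the log2 ratio over genes was 0.69, 0.54 and 0.43 in old KO, 1.37, 0.97 and 1.33 in old WT and 0.50, 0.38 and 0.46 in young WT libraries.
More than 4-fold below the young WT mean were 1, 1 and 0 genes in old KO and 8, 4 and 10 in old WT libraries. In old KO libraries 1 and 2 that gene was Rpl7l1. Only Rpl22l1 was more than 4-fold low in all 3 old WT libraries, and Rpl13a, Rpl15, Rpl22, Rpl4 and Rps27l were so in 2 of 3. A further 9 genes were so in 1 old WT library: Rpl11, Rpl12, Rpl8 and Rpl24 in library 3, Rpl7 and Rps26 in library 1, and Rpl14, Rpl5 and Rpl7l1 in library 2. Old WT libraries held the fewest counts, so these gene-by-gene gaps come with the thinnest libraries. The part of depth in them was not tested, as the thinned counts given below entered only the edgeR fits.

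**Figure D2:**
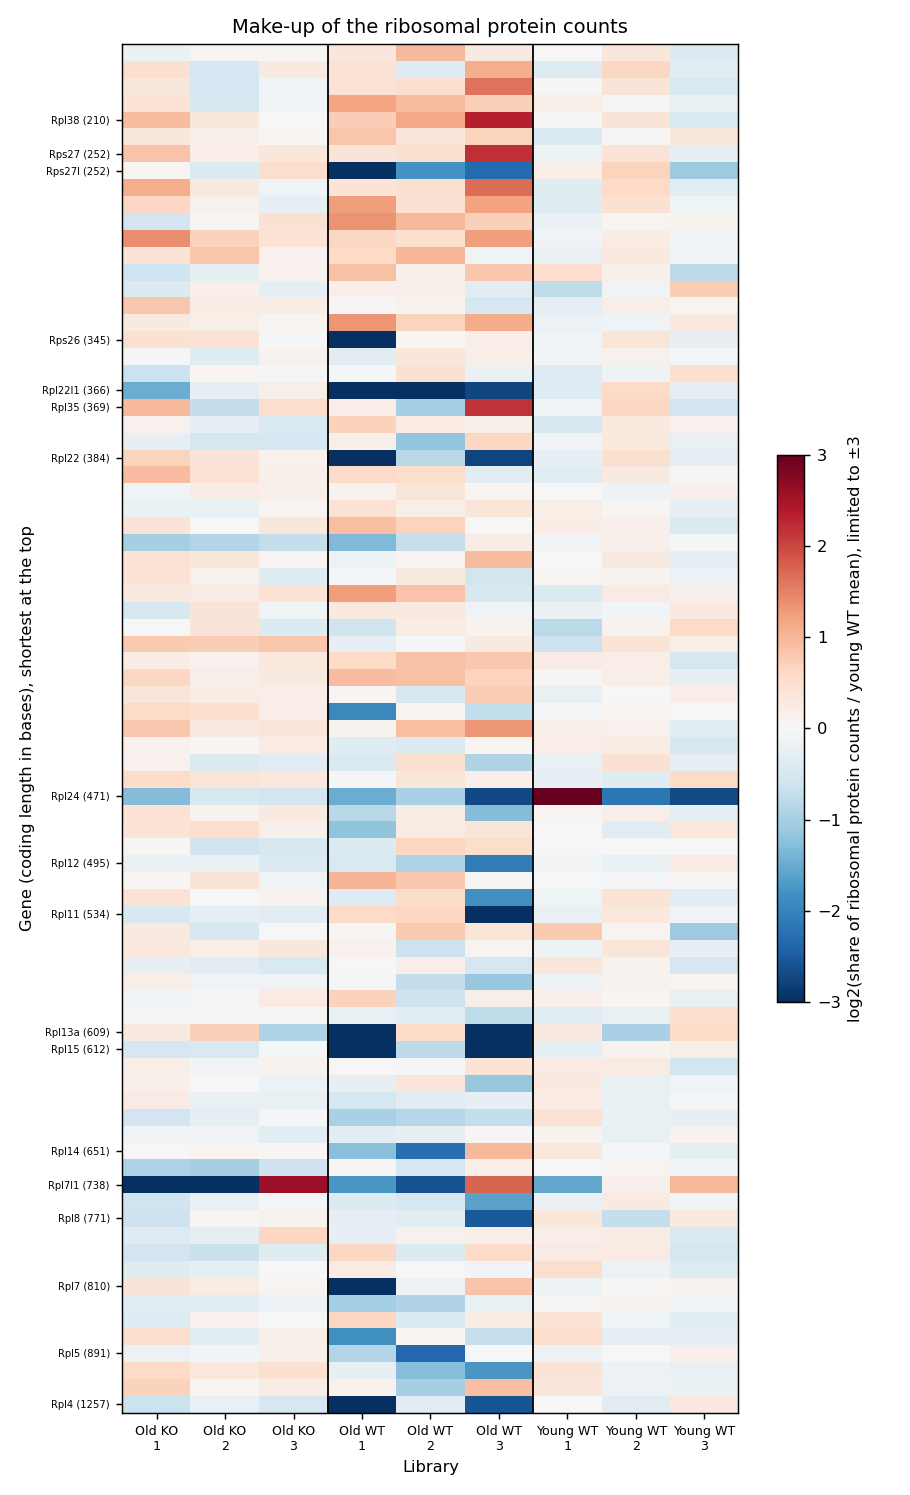
Log2 ratio of each gene's share of ribosomal protein counts to the young WT mean (colour, limited to ±3) in 9 libraries, for the 81 genes that passed the background rule in every young WT library, ordered by coding length from the shortest at the top; genes more than 4-fold from that mean in any library are labelled. Old KO and young WT columns are mostly pale, apart from Rpl7l1 in old KO and Rpl24 in young WT, and the old WT columns hold deep blue cells for Rpl22l1, Rpl22, Rps27l and Rpl15.

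In old WT the shares of most genes with short coding sequences were up and those of most with long ones down. Several genes with short coding sequences lay far on the other side. The 28 genes with coding sequences of up to 400 bases took 23.7%, 25.7% and 23.8% of the ribosomal protein counts in old KO, 30.9%, 29.7% and 29.6% in old WT and 21.2%, 24.7% and 27.0% in young WT libraries. The 23 genes over 600 bases took 36.7%, 36.7% and 40.3% in old KO, 31.5%, 29.7% and 35.8% in old WT and 44.2%, 38.9% and 38.0% in young WT libraries. In both classes old WT stood apart from the other 6 libraries, while old KO and young WT overlapped.
Across the 81 genes the log2 ratio of mean shares, old WT over young WT, had a Spearman correlation with coding length of -0.530. For old KO over old WT the correlation was 0.447, and for old KO over young WT it was -0.268. These are descriptions over genes that share libraries, and the first and second share the old WT libraries. Among the 40 genes without exon overlap and with under 50% of their windows of 100 bases found in another transcript, the values were -0.495, 0.475 and -0.003. The relation also varied between young WT libraries, at 0.41, -0.53 and 0.10 when each was set against the other two, against -0.44, -0.46 and -0.36 in old WT libraries.
With the length of the whole transcript (1 chosen per gene) the Spearman correlations were weaker. They were -0.233, 0.214 and -0.124 in the same order of comparisons. Correlations with GC content were 0.063, -0.042 and 0.058 in that order. Genes with and without an oligopyrimidine tract had median log2 ratios of 0.13 (34 genes) and 0.03 (27 genes) for old WT over young WT.

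**Figure D3:**
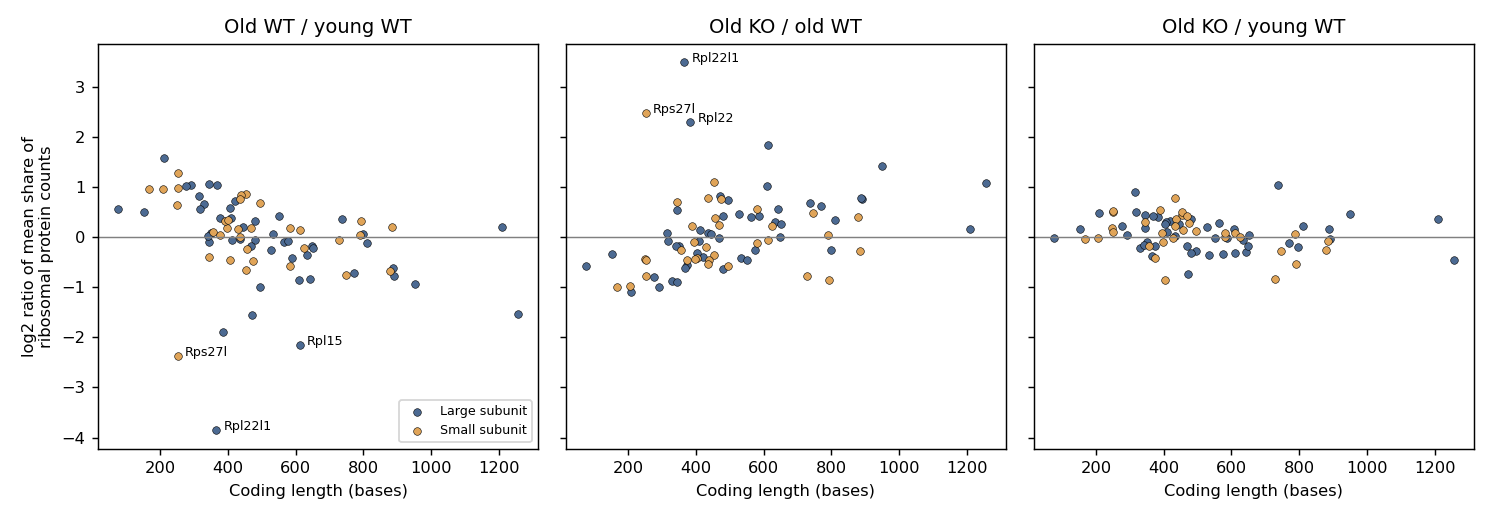
Coding length (bases) against the log2 ratio of mean shares of ribosomal protein counts, 1 point per gene (81 genes), for old WT over young WT, old KO over old WT and old KO over young WT. In the first panel (Spearman -0.530) 23 of the 28 genes of up to 400 bases lie above 0 and 16 of the 23 over 600 bases below it, while the lowest points are Rpl22l1 and Rps27l, both short, and Rpl15.

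Old WT was compared with young WT to ask what ageing changes in wild-type stem cells. With TMM factors, 83 of the 84 tested ribosomal protein genes were called lower in old WT (50 large and 33 small subunit) and 1 higher (edgeR's quasi-likelihood F test at an adjusted p of 0.05, Benjamini-Hochberg over 32582 genes). Of all genes, 18.4% were called lower and 18.6% higher. DESeq2 called 81 of 82 lower and 1 higher, against 17.9% and 26.5% of the genes it tested. The median log2 fold change was -4.39 over the ribosomal protein genes and 1.37 over all genes. Rpl10l, with 0 to 8 counts in a library, was not tested.
That size is a matter of scaling. TMM factors were 0.725 to 1.37 in old KO, 3.20 to 5.45 in old WT and 0.172 to 0.331 in young WT libraries. With total counts in genes as the only scaling, the median was -0.42 for the ribosomal protein genes and 5.32 for all genes, 9 were called lower (3.43% of all genes) and 1 higher (68.5%), and 22 of the 84 fold changes were above 0. With the summed ribosomal protein counts as library size the median was 0.06, and 2 genes were called lower (1.84%) and 1 higher (70.7%). That library size is the sum of these same genes, so a median near 0 is largely set by the scaling. After background subtraction 0 of 83 were called in either direction, against 0.0579% of all genes called lower and 0.0811% higher. The median was then 0.04 for the ribosomal protein genes, with 45 of the 83 above 0, and -2.01 for all genes. Only genes above background in at least 2 libraries of any group entered that fit. At an unadjusted p under 0.05, 3 of the 83 were lower and 1 higher, against 1549 and 212 of all 8629 genes.
The 2 genes called lower under all of the first 3 scalings were Rpl22l1 and Rpl15. Those called lower with TMM factors and with total counts were these and Rpl10, Rpl22, Rpl39l, Rpl4, Rpl5, Rps2 and Rps27l.

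**Figure D4:**
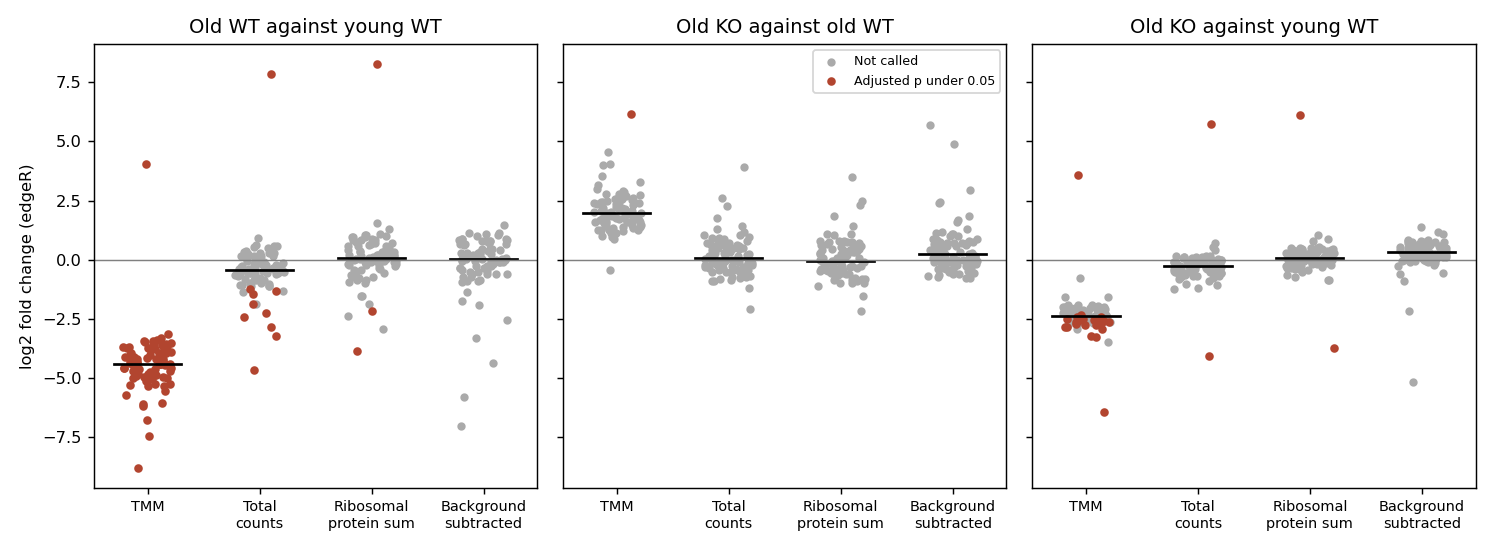
Log2 fold changes (edgeR) of the ribosomal protein genes for 3 comparisons under 4 scalings; each point is a gene, red points have an adjusted p under 0.05, and black bars are medians. For old WT against young WT the median moves with the scaling, at -4.39 with TMM factors and -0.42 with total counts.

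Rpl22l1 had the lowest fold change in old WT with TMM factors, total counts and the ribosomal protein sum, and Rpl36al had it after background subtraction. Rpl22l1 is the paralog of Rpl22, an RNA-binding large subunit protein whose loss in mice blocks T cell development, and it lies at chr3:28805436-28807424 on the plus strand (GENCODE M21, GRCm38). It had 45.9, 97.3 and 151 CPM in old KO, 4.11, 3.50 and 11.6 CPM in old WT and 132, 219 and 141 CPM in young WT libraries. No old WT library came near the other 6, and in counts old WT held 21, 11 and 40 reads. The log2 fold change for old WT against young WT was -8.79 ± 1.41 with TMM factors (SE; edgeR adjusted p = 0.00489), -4.66 with total counts (adjusted p = 0.00252) and -3.87 with the ribosomal protein sum (adjusted p = 0.0106).
For old KO against old WT it was 6.15 ± 1.26 (SE; edgeR adjusted p = 0.045). Rpl22l1 was the only ribosomal protein gene called in that comparison, and it was not called with total counts (3.92, adjusted p = 0.146) or when any old WT library or old KO library 3 was left out. Old KO and young WT ranges overlapped, with a log2 fold change of -2.64 ± 1.07 (SE; edgeR adjusted p = 0.0861). On the opposite strand, 28.8% of its exon length overlaps another gene, and the strand setting of the counting is not given in the sources used here.

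Rpl22 itself was also low in old WT. It had 918, 684 and 633 CPM in old KO, 58.1, 346 and 50.8 CPM in old WT and 628, 935 and 624 CPM in young WT libraries. Old WT lay below all other libraries, and old KO and young WT overlapped. Its log2 fold change for old WT against young WT was -6.05 ± 1.22 with TMM factors (SE; edgeR adjusted p = 0.00656) and -2.25 with total counts (adjusted p = 0.039). For old KO against old WT it was 4.01 ± 1.10 and was not called (SE; edgeR adjusted p = 0.133).

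Rps27l, a paralog of Rps27 known as a p53 target, had 62.8, 41.7 and 89.6 CPM in old KO, 5.67, 18.8 and 7.25 CPM in old WT and 82.2, 106 and 43.7 CPM in young WT libraries. Again old WT lay apart from both other groups. Its log2 fold change for old WT against young WT was -6.77 ± 1.41 with TMM factors (SE; edgeR adjusted p = 0.00727) and -2.85 with total counts (adjusted p = 0.031), and for old KO against old WT it was 4.56 ± 1.27 (SE; edgeR adjusted p = 0.139).
Rps27, a small subunit zinc finger protein, had 931, 540 and 672 CPM in old KO, 686, 764 and 1407 CPM in old WT and 588, 805 and 566 CPM in young WT libraries. Here all groups overlapped. Of the 100-base windows of Rps27, 98.4% are found in another annotated transcript, which is so for 89.5% of the near copy Rps27rt (12.9 to 29.4 CPM in old KO, 18.8 to 26.1 in old WT and 14.3 to 23.5 in young WT) and for 0.0% of Rps27l. Of all 85 genes, 36 share over 50% of their windows in this way. They include Rpl10 (91.6%), Rpl5 (91.1%), Rps12 (88.9%), Rps6 (83.6%), Rpl15 (73.4%), Rps2 (64.7%) and Rpl22l1 (50.8%), while Rpl22 and Rps3 are at 0.0%. The effect on their counts was not tested.

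Rpl15, a large subunit protein, had 1474, 1430 and 2142 CPM in old KO, 93.3, 1329 and 58.3 CPM in old WT and 2292, 2950 and 2856 CPM in young WT libraries. Old KO lay between the other groups and apart from both, and old WT library 2 lay far above the other old WT libraries. Its log2 fold change in that comparison was -6.20 ± 1.34 with TMM factors (SE; edgeR adjusted p = 0.00806) and -2.16 with the ribosomal protein sum (adjusted p = 0.0334); without old WT library 2 it was -9.31 with TMM factors (adjusted p = 0.0102). Rpl15 for old KO against old WT was at 3.53 ± 1.18 (SE; edgeR adjusted p = 0.215). Rpl4, the longest of the coding sequences, had the same uneven old WT libraries at 331, 3093 and 360 CPM, against 4559, 4089 and 5208 CPM in young WT. Its log2 fold change was -5.71 ± 1.13 with TMM factors (SE; edgeR adjusted p = 0.00642) and -1.855 with total counts (edgeR adjusted p = 0.0488). It was -1.53 with the ribosomal protein sum (edgeR adjusted p = 0.0662) and -1.345 after background subtraction (edgeR adjusted p = 0.312).

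Rps2 and Rpl10 were low in old WT with little spread. Rps2, a small subunit protein near the entry of the message, had 4084, 3810 and 4708 CPM in old KO, 2612, 2968 and 2613 CPM in old WT and 6427, 7123 and 6004 CPM in young WT libraries. Rpl10, which sits near the peptidyl transferase centre, had 4528, 5051 and 6687 CPM in old KO, 3557, 4006 and 2445 CPM in old WT and 10040, 8080 and 7456 CPM in young WT libraries. In both genes the 3 groups were fully apart, with old KO in the middle. With total counts, Rps2 for old WT against young WT was at -1.23 (edgeR adjusted p = 0.0478) and Rpl10 at -1.33 (edgeR adjusted p = 0.0319).

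The stalk genes went separate ways. Rplp0, the stalk base, had 6686, 5056 and 6249 CPM in old KO, 3836, 1936 and 788 CPM in old WT and 6428, 5333 and 4944 CPM in young WT libraries. Old WT lay below both other groups, which overlapped. Rplp2, its partner with Rplp1 on the stalk, had 3555, 3034 and 3172 CPM in old KO, 7567, 5017 and 3793 CPM in old WT and 3314, 3644 and 4154 CPM in young WT libraries.
For Rplp2 old WT lay above old KO without overlap and overlapped young WT. Rplp1 had 11060, 15030 and 12630 CPM in old KO, 16690, 17710 and 7131 CPM in old WT and 12500, 18550 and 24980 CPM in young WT libraries, and all groups overlapped. For old WT against young WT the log2 fold changes with total counts were -1.33 for Rplp0 (edgeR adjusted p = 0.0654), 0.58 for Rplp2 (edgeR adjusted p = 0.364) and -0.41 for Rplp1 (edgeR adjusted p = 0.461). With TMM factors all 3 were called lower, at -5.29, -3.39 and -4.28, so the sign for Rplp2 turns with the scaling. Rplp0 for old KO against old WT was at 3.29 ± 0.86 with TMM factors (SE; edgeR adjusted p = 0.114).

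**Figure D5:**
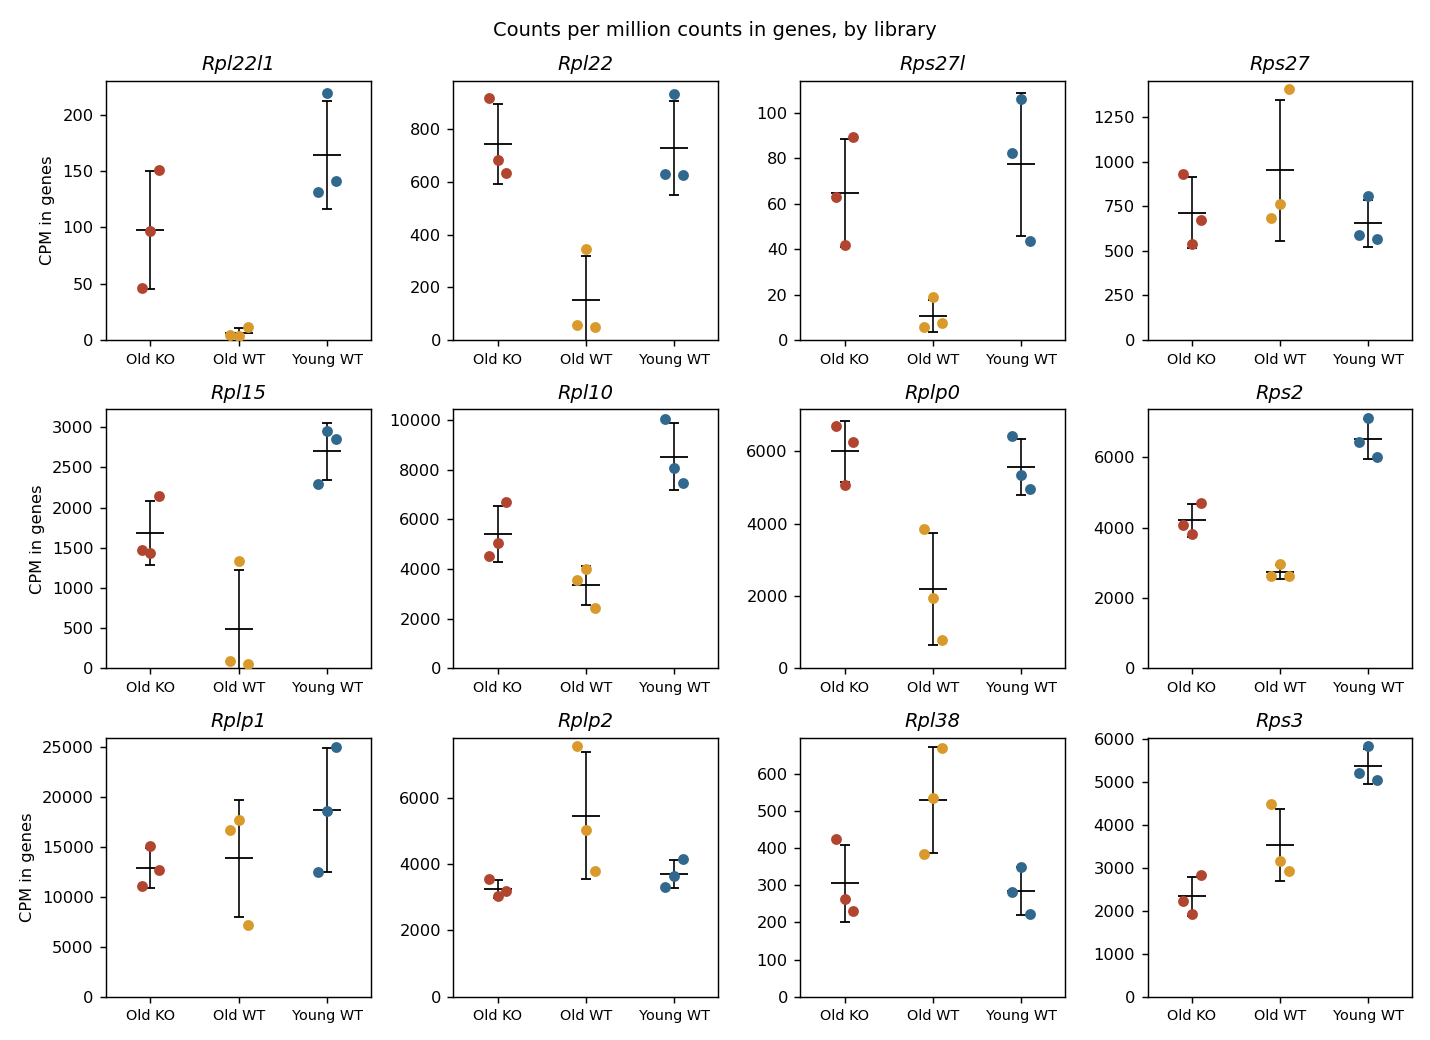
CPM in genes of 12 ribosomal protein genes in each library (points), with the group mean (bar) and SD (whiskers, cut at 0), in old KO, old WT and young WT. Old WT points lie below both other groups for Rpl22l1, Rpl22, Rps27l, Rpl15, Rpl10, Rplp0 and Rps2, and not for Rps27, Rplp1, Rplp2, Rpl38 or Rps3.

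A set of genes with mostly short coding sequences lay at the other end. Rpl38, whose loss in mice alters the axial skeleton, had 424, 262 and 231 CPM in old KO, 384, 536 and 670 CPM in old WT and 282, 350 and 223 CPM in young WT libraries. Old WT lay above young WT without overlap, yet with TMM factors Rpl38 was called lower at -3.14 ± 0.97 (SE; edgeR adjusted p = 0.0254), while with total counts it was at 0.92 (edgeR adjusted p = 0.335). The call with TMM factors was lost without young WT library 1 or any 1 old WT library (edgeR adjusted p from 0.0585 to 0.0811). As shares of the ribosomal protein counts, 15 of the 81 genes were higher in old WT than in young WT without overlap and 12 were lower. Such shares are parts of the same sum and cannot all move the same way. Counts of other genes per ribosomal protein count are not bound like this.
A total of 5874 genes passed the background rule in every young WT library, and by the same test of ranges 5.82% of them were higher and 22.6% lower per ribosomal protein count. The 81 and the 5874 genes were both picked on young WT values alone. In comparisons with young WT this choice favours genes that are lower in the old group. The 15 were Rpl36, Rpl37, Rpl37a, Rpl38, Rpl41, Rplp2, Rps10, Rps16, Rps19, Rps21, Rps24, Rps27, Rps27rt, Rps28 and Rps29. The 12 were Rpl10, Rpl12, Rpl13, Rpl15, Rpl19, Rpl22, Rpl22l1, Rpl4, Rplp0, Rps2, Rps27l and Rps6. Without old WT library 3 the counts were 23 and 19, which was not counted over the 5874 genes.
Rps19 took 0.825% ± 0.056 of the ribosomal protein counts in old KO, 1.20% ± 0.12 in old WT and 0.707% ± 0.131 in young WT, and Rps28 0.214% ± 0.066, 0.421% ± 0.068 and 0.216% ± 0.020 in the same groups (SD, n = 3 each). Rpl41, the shortest coding sequence, took 0.377% ± 0.035, 0.566% ± 0.157 and 0.383% ± 0.066. Rps6, the substrate of the S6 kinases, took 1.92% ± 0.35, 1.38% ± 0.54 and 2.32% ± 0.27. Its log2 fold change for old WT against young WT was -4.99 ± 0.92 with TMM factors (SE; edgeR adjusted p = 0.00572) and -1.13 with total counts (adjusted p = 0.113).

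In CPM, 23 of the 85 genes were lower in old WT than in young WT without overlap and 2 higher (Rpl38 and Rpl3l), against 5.87% and 65.0% of the 32582 tested genes. Of the 5874 genes, of which 81 are ribosomal protein genes, 32.6% were lower and 3.88% higher, and the 81 gave 23 and 1. Without old WT library 3 the 81 gave 25 and 13, which was not counted over the 5874 genes.
Rpl3l, the 1 gene called higher, had 19, 28 and 9 counts in old KO, 53, 15 and 12 counts in old WT and 2, 1 and 0 counts in young WT libraries. It was above background in none, so these counts are at the level of reads over genes that should be silent. Its log2 fold change with TMM factors was 4.03 ± 1.08 for old WT against young WT (SE; edgeR adjusted p = 0.0157) and 3.59 ± 1.07 for old KO against young WT (SE; edgeR adjusted p = 0.0441). The call for old WT against young WT was lost without old WT library 1 (edgeR adjusted p = 0.0709). The call for old KO against young WT was lost when any 1 library of these groups was left out (edgeR adjusted p from 0.069 to 0.136), and with RLE factors, no filter on low counts or the replicate block. Its parent Rpl3, which lines the path to the peptidyl transferase centre, had 5179, 3041 and 3843 CPM in old KO, 3514, 1716 and 3580 CPM in old WT and 4630, 3854 and 3603 CPM in young WT libraries.
Rpl39l had 9, 5 and 12 counts in old KO, 14, 1 and 0 in old WT and 1702, 9 and 228 in young WT libraries. The young WT libraries differed among themselves by more than 4-fold, and old KO and old WT overlapped. Its log2 fold change was -7.46 ± 2.05 for old WT against young WT (SE; edgeR adjusted p = 0.0171) and -6.45 ± 1.95 for old KO against young WT (SE; edgeR adjusted p = 0.0451). The first was lost without old WT library 2 or 3 (edgeR adjusted p = 0.0635 and 0.0622). The second was lost without young WT library 1, where it was at -4.61, or without any 1 old KO library (edgeR adjusted p from 0.0612 to 0.125), and with only these 6 libraries, the replicate block, background subtraction or thinning. Rpl39 had 673 to 1503 CPM in old KO, 866 to 1469 in old WT and 1075 to 1815 in young WT libraries, and all groups overlapped. Rpl7l1, a paralog of Rpl7, had 3.79, 3.72 and 276 CPM in old KO, 13.9, 7.95 and 90.8 in old WT and 24.5, 63.9 and 83.5 in young WT libraries, so 1 library set each old group's mean.

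Old KO was compared with old WT to ask what loss of Sphk2, a kinase that makes sphingosine 1-phosphate, does in aged stem cells. With TMM factors 1 of 84 ribosomal protein genes, Rpl22l1, was called higher and 0 lower (edgeR quasi-likelihood test). Of all genes, 0.457% were called higher and 0.0% lower. At an unadjusted p under 0.05, 53 were higher and 0 lower, against 3137 and 713 of all 32582 genes. DESeq2 called 29 of 80 higher and 0 lower, against 24.3% and 1.71% of all genes it tested. The median log2 fold change was 1.97 for the ribosomal protein genes and -0.04 for all genes with TMM factors, and 0.06 and -1.93 with total counts, where 40 of 84 were below 0. With total counts and with the ribosomal protein sum edgeR called 0 of 84 (0.00614% and 0.00606% of all genes higher, 0.0% lower). After background subtraction it called 0 of 83 (0.151% higher and 0.0116% lower), and the medians were 0.26 for the ribosomal protein genes and 0.94 for all genes. At an unadjusted p under 0.05, 4 were higher and 0 lower with total counts, against 946 and 8726 of all 32582 genes. With the ribosomal protein sum 4 were higher and 0 lower, against 771 and 9357 of 33012. Background subtraction gave 5 higher and 0 lower, against 1344 and 335 of 8629.
In CPM, the old KO range lay above that of old WT in 13 genes and below it in 6, against 1.91% and 48.8% of the 32582 tested genes. Of the 81 genes, 13 lay above and 4 below, against 10.1% and 20.5% of the 5874 genes. Without old WT library 3 the 81 gave 15 and 21, which was not counted over the 5874 genes. The 13 were Rpl10, Rpl12, Rpl15, Rpl19, Rpl22, Rpl22l1, Rpl5, Rplp0, Rps13, Rps15, Rps18, Rps2 and Rps27l. Of these, 12 were among the 23 that were lower in old WT than in young WT, but both counts use the same old WT libraries, so a low old WT value enters each.
In 7 of the 12 (Rpl22, Rpl22l1, Rpl5, Rplp0, Rps13, Rps18 and Rps27l) old KO overlapped young WT or lay above it, and in the other 5 (Rpl10, Rpl12, Rpl15, Rpl19 and Rps2) old KO lay below young WT. Rpl5, which forms the 5S particle with Rpl11 and 5S RNA, had 3362, 3310 and 4361 CPM in old KO, 2126, 805 and 2278 CPM in old WT and 4348, 5067 and 5078 CPM in young WT libraries. With total counts Rpl5 for old WT against young WT was at -1.45 (edgeR adjusted p = 0.0419). Its partner Rpl11 had 902, 948 and 1045 CPM in old KO, 1939, 2068 and 74.2 CPM in old WT and 1390, 1910 and 1483 CPM in young WT libraries, so old WT library 3 parted from its group.
As shares of the ribosomal protein counts, 13 of the 81 genes lay above old WT and 12 below it, against 8.29% and 19.8% of the 5874 genes per ribosomal protein count. In CPM, Rplp2, Rps29, Rps3 and Rps3a1 lay lower in old KO, besides Rpl36al and Rpl3l, which passed the background rule in no library of either group. Rps15, a small subunit protein needed for export of the particle, had 1847, 1630 and 1939 CPM in old KO, 922, 1089 and 763 CPM in old WT and 961, 1655 and 1438 CPM in young WT libraries.

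Old KO was also set against young WT, which differs in both age and genotype. With TMM factors 22 of 84 ribosomal protein genes (11 large, 11 small subunit) were called lower and 1, Rpl3l, higher (edgeR quasi-likelihood test), against 5.84% lower and 6.91% higher over all genes. The median was -2.40, and 1.20 over all genes. This count is unstable: it was 0 to 2 when any 1 library of these groups was left out, 1 with total counts (3.92% of all genes, and 52.7% higher), 1 with the ribosomal protein sum (2.69%, and 56.3% higher), 67 when only these 6 libraries were fitted and 80 with DESeq2 (14.7%, and 12.8% higher). The sign of the median also turned with the setting. It was -0.285 with total counts (3.25 over all genes) and 1.01 with counts thinned to the smallest library total. After background subtraction edgeR called 0 of 83, against 0.0% of all genes called lower and 0.0464% higher. The median was then 0.33, with 68 of the 83 above 0, and -0.34 over all genes. At an unadjusted p under 0.05, 1 of the 83 was lower and 0 higher, against 742 and 228 of all 8629 genes.
Among the 22 called lower with TMM factors were Rpl10, Rpl12, Rpl13, Rpl39l, Rpl5, Rplp1, Rps12, Rps2, Rps23, Rps3, Rps6 and Rpsa. In CPM, 25 of the 85 genes were lower in old KO than in young WT without overlap and 1, Rpl3l, higher, against 4.06% and 53.5% of the tested genes. The 81 gave 25 and 0, against 22.5% and 3.51% of the 5874 genes.

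Besides Rpl39l and Rpl24, which had few counts, Rps3 was among the 5 genes with the lowest fold changes for old KO against young WT. Rps3, a small subunit protein that also serves in DNA repair, had 2228, 1932 and 2835 CPM in old KO, 4474, 3162 and 2920 CPM in old WT and 5207, 5817 and 5043 CPM in young WT libraries. All 3 groups were apart, with old KO lowest. For old KO against young WT its log2 fold change was -3.22 ± 0.78 with TMM factors (SE; edgeR adjusted p = 0.0326) and -1.20 with total counts (adjusted p = 0.0778). The call with TMM factors was lost when any 1 library of these groups was left out (edgeR adjusted p from 0.06 to 0.0935).
As shares of the ribosomal protein counts, 6 of the 81 genes (among them Rpl11, Rpl12, Rps2 and Rps3) were lower in old KO than in young WT without overlap and 10 higher (Rpl23, Rpl27a, Rpl30, Rpl36, Rpl7, Rplp0, Rps13, Rps14, Rps15 and Rps16). Per ribosomal protein count, 17.7% of the 5874 genes were lower and 5.58% higher. Rps14 took 1.92% ± 0.40 in old KO, 2.46% ± 0.96 in old WT and 1.36% ± 0.16 in young WT, and Rps27a, made as a fusion with ubiquitin, 1.72% ± 0.15, 1.45% ± 0.20 and 1.29% ± 0.31 (SD, n = 3 each). Rpsa, also a laminin receptor, took 2.98% ± 0.53, 3.61% ± 1.22 and 3.14% ± 0.55, and Rps4x 1.96% ± 0.80, 1.91% ± 0.30 and 1.87% ± 0.30.

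Genes that make ribosomes or steer their messages were less well measured than the ribosomal proteins. Of 38 large subunit assembly factors, 20 were above background in at least 2 old KO libraries, 2 in at least 2 old WT libraries and 37 in at least 2 young WT libraries. For 35 small subunit assembly factors the numbers were 9, 1 and 32, for 20 genes of RNA polymerase I and its factors 8, 1 and 17, and for 15 regulators of the tract and of S6 phosphorylation 3, 0 and 14. Of 78 mitochondrial ribosomal protein genes, 27, 2 and 74 passed.
With TMM factors old WT was called lower than young WT in 28 of 38 large subunit assembly factors (median -5.16), 24 of 35 small subunit factors (-5.06), 16 of 20 polymerase I genes (-5.90), 12 of 15 regulators (-5.02) and 60 of 77 tested mitochondrial ribosomal protein genes (-5.68). Over all genes 18.4% were called lower. With total counts these medians were -1.23, -0.97, -1.61, -1.01 and -1.54, beside -0.42 for the cytosolic ribosomal protein genes. For old KO against young WT, 7 of 38, 7 of 35, 6 of 20, 2 of 15 and 22 of 77 were called lower in the same order, against 5.84% of all genes. Of the 77 mitochondrial ribosomal protein genes, 1 was called higher for old KO against old WT, against 0.457% of all genes. The lists were chosen with earlier results known, so their counts are descriptions.
Npm1, a nucleolar chaperone of ribosome assembly, had 746, 1348 and 1255 CPM in old KO, 49.3, 1163 and 67.9 CPM in old WT and 1858, 1149 and 1116 CPM in young WT libraries, with old WT library 2 far above the other old WT libraries, as in Rpl15. Larp1 had 58.7, 7.89 and 258 CPM in old KO, 9.38, 15.3 and 23.8 CPM in old WT and 67.6, 78.9 and 50.3 CPM in young WT libraries. Fau, which encodes a small subunit protein outside the symbol rule, had 1631 to 1900 CPM in old KO, 1419 to 2622 in old WT and 1135 to 1733 in young WT libraries, and the groups overlapped.

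Marker genes of other cells were summed in the same libraries. Summed over 8 monocyte and macrophage genes the level was 19.4 to 47.0 CPM in old KO, 87.8 to 183 in old WT and 1.90 to 26.8 in young WT libraries, with 0 of 8 above background in at least 2 libraries of any group. Summed over 11 erythroid genes it was 606 to 1367, 63.2 to 724 and 1468 to 2814 CPM, and over 10 neutrophil genes 1129 to 2104, 564 to 1187 and 532 to 814 CPM in old KO, old WT and young WT. For 8 B cell genes it was 13.5 to 168, 82.9 to 125 and 7.83 to 83.1 CPM, for 7 T and NK cell genes 13.2 to 178, 30.2 to 80.0 and 76.5 to 163 CPM, for 7 megakaryocyte genes 277 to 610, 132 to 435 and 384 to 881 CPM, and for 8 stroma and endothelium genes 45.5 to 309, 156 to 193 and 11.6 to 178 CPM. In at least 2 libraries of old KO, old WT and young WT, 1, 1 and 8 of the erythroid genes were above background, 3, 2 and 5 of the neutrophil genes, 3, 0 and 4 of the megakaryocyte genes, 1, 0 and 1 of the T and NK cell genes, and 0, 0 and 1 of both the B cell and the stroma and endothelium genes. Single genes carried many of these sums. Car2 made up 96.9%, 88.7% and 88.4% of the erythroid sum in old KO, old WT and young WT, and without it the other 10 genes came to 9.36 to 63.7, 31.5 to 39.4 and 117 to 448 CPM. Prtn3 made up 87.2%, 69.2% and 85.1% of the neutrophil sum in the same groups. Klrb1c made up 87.6% of the T and NK cell sum in old KO and Nkg7 99.4% in young WT, while Cd79b made up 72.8% and 95.1% of the B cell sum in these groups. Hba-a2 was at 0 in all old KO libraries and Gzma in all young WT libraries. Their part in the ribosomal protein results was not tested.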

How the data were processed

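The values are raw counts of reads for each gene and library, as deposited by the authors. The tools Trim Galore 0.6.2 and STAR 2.6.1d, the counter HTSeq 0.10.0, edgeR 3.24.3 and build mm10 come from the submitters' processing notes. Neither gene annotation nor strand setting is given in the sources used here. The 5 lines that name no gene stayed out of library sizes and tests. Reads without molecular identifiers are not independent molecules. Symbols, coordinates, overlaps and exon lengths came from GENCODE M21 for 52403 identifiers, and promoter windows from RefSeq. Per-kb levels divide by the length of 1 chosen transcript, which is long for Rps15a (5130 bases) and Rps20 (3706 bases).

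Counts of all 9 libraries were tested with edgeR 4.0.16 in R 4.3.3: quasi-likelihood F test, 1 mean per group, TMM factors, filterByExpr, Benjamini-Hochberg adjustment at 0.05 over all 32582 tested genes. The SE is the log2 fold change divided by the square root of F. The steps were tested on simulated data with a mean profile that all groups shared, apart from the genes altered on purpose. Those data held no group difference in background reads, so they cannot check the scaling here. Alternatives were DESeq2 1.42.0, other scalings, filters, a replicate block, background subtraction, thinning and leaving out libraries; leaving libraries out of the shares and of the range counts was added after the data were seen. Tables and figures used Python 3.11.15 with matplotlib 3.10.9.

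The members and gene lists were chosen with earlier results of these data known. Named genes were the 5 highest and 5 lowest fold changes of each comparison, the genes going against the majority, the 5 highest and 5 lowest per kb in young WT, the 5 highest in old WT, paralog pairs and a fixed set of known proteins; the others (such as Rpl4, Rpl12, Rpl19, Rps13, Npm1 and Larp1, and those listed because their groups did not overlap) were named after their values were seen. Results that concern 1 of the genes this rule names are not reported here.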

Additional observations from a re-analysis of the deposited data

How the results depend on the processing

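For old WT against young WT, 84 ribosomal protein genes were called in all, and 10 with total counts and 3 with the ribosomal protein sum as library size. Background subtraction gave 0, thinning to the smallest total 15 and leaving out a library 72 to 83. Over all genes, 12056 of 32582 were called, 23424 with total counts and 23941 of 33012 with the ribosomal protein sum. There, background subtraction gave 12 of 8629, thinning 10613 of 18805 and leaving out a library 3695 to 11412. For old KO against old WT, 1 was called, and 0 with RLE factors, upper-quartile factors, total counts, the ribosomal protein sum, only these 6 libraries, the replicate block or background subtraction. At least 1 CPM in at least 6 libraries gave 3, thinning 5, DESeq2 29 and leaving out a library 0 to 1. Over all genes, 149 of 32582 were called, 0 with only these 6 libraries and 14 of 8629 after background subtraction. Each other setting that gave 0 called 2 of all genes. The CPM filter gave 206 of 15171, thinning 217 of 18805, DESeq2 2227 of 8555 and leaving out a library 0 to 185. For old KO against young WT, 23 were called, and 4 with upper-quartile factors, 2 with total counts or the ribosomal protein sum, 1 with no filter or with at least 1 CPM in at least 6 libraries, 68 with only these 6 libraries, 0 with the replicate block or background subtraction, 4 after thinning (all higher) and 81 with DESeq2. Leaving out a library gave 0 to 2. Over all genes, 4155 of 32582 were called. There, upper-quartile factors gave 6110, total counts 18448, the ribosomal protein sum 19488 of 33012, no filter 4356 of 49385 and the CPM filter 6450 of 15171. Only these 6 libraries gave 3887 of 22789, the replicate block 0, background subtraction 4 of 8629 and thinning 9719 of 18805. DESeq2 called 8327 of 30196 genes, and leaving out a library gave 0 to 4482. The remaining settings kept the counts of ribosomal protein genes called within 1.5 times. The cause was not tested.
Same-numbered libraries did not deviate together (correlations from -0.037 to 0.022), so the numbers were not taken as pairs; the block left 82 calls for old WT against young WT.
The mean share of ribosomal protein counts was 22.4% in old KO and 27.9% in young WT over nuclear protein-coding genes, and 8.94% in old KO, 3.07% in old WT and 22.4% in young WT over all counts. As a share of counts in genes, leaving out a library gave 20.2% to 21.3% in old KO, 17.1% to 22.1% in old WT and 26.1% to 27.0% in young WT. With the stricter background rule (10 times the density) a mean of 79.7 genes passed in old KO and 75.7 in old WT.
Signs turned for Rplp1 in old WT against young WT with the ribosomal protein sum (0.015) and background subtraction (0.12), for Rplp2 with total counts (0.58), the sum (1.07), subtraction (1.08) and thinning (0.12), and for Rpl38 with the same settings (0.92, 1.57, 1.46 and 0.42). In old KO against young WT, thinning turned Rpl22l1 (0.69) and Rps3 (0.15).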

Other observations

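Processed copies of ribosomal protein genes are common in the mouse genome, and 291 symbols ending in -ps and digits were counted beside the 85 genes. They received 6.08, 6.38 and 5.41 counts per 1000 ribosomal protein counts in old KO, 7.89, 8.08 and 11.6 in old WT and 4.44, 5.995 and 5.54 in young WT libraries. Old WT lay above both other groups. No background was subtracted from these counts. The olfactory receptor density was 5.55 to 7.29 reads per kb in old KO, 5.41 to 10.4 in old WT and 1.09 to 1.425 in young WT libraries. The part of such reads in the difference was not tested. A further 7 symbols that match the rule are annotated as pseudogenes and were left out.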
